A study of Rattus norvegicus with 4 samples.

Results

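The SLC25 mitochondrial carriers were examined in rat tail tendon fibroblasts that had been given the clot releasate of PRP or of PPP. A probe set was included when its only gene symbol in the platform's annotation began with Slc25a, which gave 40 probe sets of 40 genes among the 14824 probe sets with a single symbol and the 36685 of the whole table. The cells came from Lewis rats that were retired breeders and were held in gels of type I collagen. After 2 days in medium with 10% fetal bovine serum, the medium was exchanged for one with 10% of either releasate and no such serum, and RNA was collected at 24 hours. PRP and PPP commonly stand for platelet-rich and platelet-poor plasma, although the labels do not spell them out. There were 2 arrays with PRP and 2 with PPP, and none without releasate among those analysed here, so a difference does not show which product moved a transcript. Whether the replicates of a group were separate cultures or animals is not stated, so the p-values reflect array-to-array spread, possibly of technical origin only. Whose plasma was used is not stated either.

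The SLC25 family is the main set of transporters of the inner mitochondrial membrane. Its members exchange nucleotides, phosphate, amino acids, carboxylates, cofactors and metals between the cytosol and the matrix, and so join ATP production, the shuttling of reducing equivalents, heme and iron-sulfur cluster synthesis and one-carbon metabolism to the rest of the cell. Most members are built from a repeated pair of membrane helices and reach the inner membrane through the TIM22 import route. The roles named here come mostly from work on human, mouse and yeast proteins.

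One carrier transcript, that of Slc25a37, was higher with PRP, and the remaining 39 did not pass. Of the 40 probe sets, 1 rose, 0 fell and 39 missed an adjusted p of 0.05 by limma with Benjamini-Hochberg adjustment over all 14824 named probe sets, a share of 2.5%. Over all named probe sets 1.85% passed, 0.83% of them higher and 1.02% lower with PRP, so the count of carriers is near the background. Differences are given throughout as log2 PRP minus PPP. They ran from -0.44 (Slc25a41) to 0.99 (Slc25a37), 21 were positive and 19 negative, and their median was 0.01, against -0.003 over all named probe sets. The median size of the difference regardless of sign was 0.16 for the carriers and 0.14 for all. At an unadjusted limma p below 0.05 there were 4 carriers (Slc25a37, Slc25a51, Slc25a12 and Slc25a41), or 10.0%, against 16.3% of all named probe sets.

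The spread of the arrays, possibly of technical origin only, also gives bounds on the differences between these arrays. The 95% interval of the difference, which is not adjusted for the number of genes, lay within a 2-fold change in either direction for 39 of the 40 carriers and within a 1.5-fold change for 30. The same bounds held for 14273 and 10550 of the 14824 named probe sets. These bounds are on RMA values, which compress the change of dim probe sets. A low value cannot be told from background without the scanner files, which were not used here. The means of 6 carriers lay below the lower quartile of all named probe sets (2.70 on the log2 scale), namely Slc25a19l1, Slc25a21, Slc25a31, Slc25a51l1, Slc25a52 and Slc25a54. In 18 carriers the PRP and PPP arrays did not overlap (12 higher and 6 lower with PRP), or 45.0%, against 46.4% of all named probe sets.

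**Figure D1:**
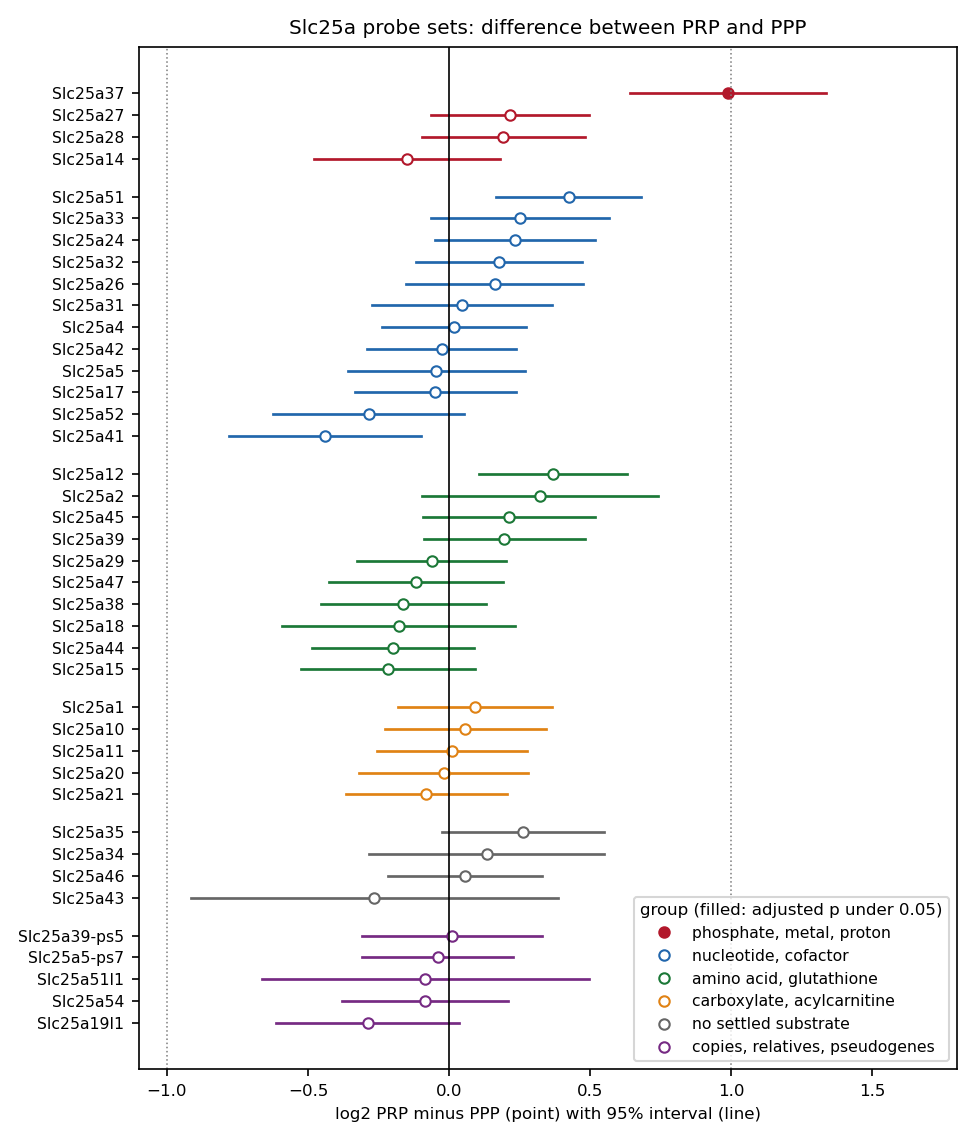
Difference between PRP and PPP for each of the 40 Slc25a probe sets (log2, points) with the 95% interval from limma (lines), grouped by transported substrate. In the group labelled phosphate, metal, proton no member is assigned phosphate transport here. The filled point, Slc25a37 at 0.99, passed an adjusted p of 0.05, and all other intervals lie between the dotted lines that mark a 2-fold change.

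**Figure D2:**
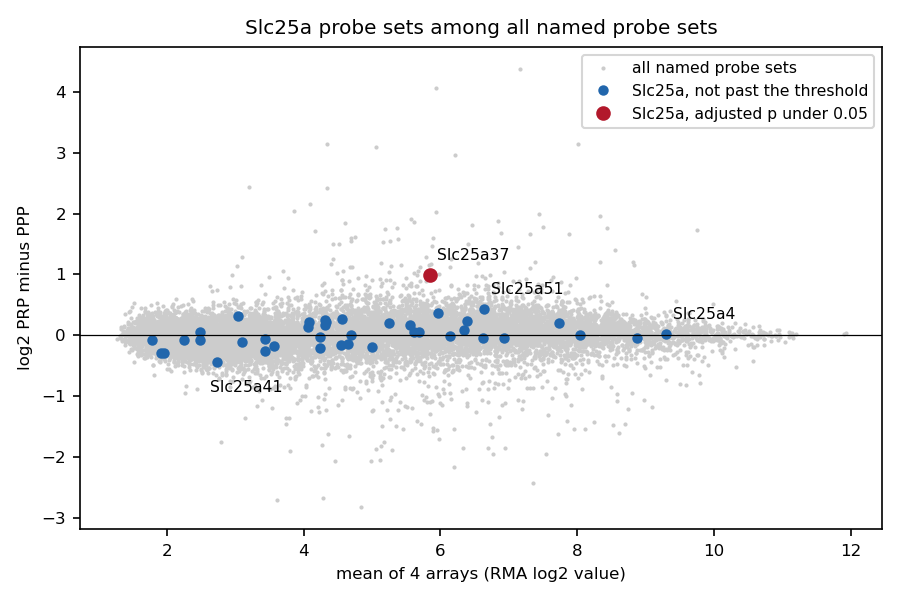
Mean level over the 4 arrays (horizontal, RMA log2 value) against log2 PRP minus PPP (vertical) for all 14824 named probe sets (grey) and the 40 Slc25a probe sets (blue; red where the adjusted p was below 0.05). Slc25a37, at a difference of 0.99, lies above the other carriers, which run from -0.44 to 0.42.

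Among the carriers grouped under metals and protons, 1 of 4 rose and 3 did not pass, and no phosphate transport is assigned to any of the 4 here. Slc25a37 is mitoferrin 1, which brings iron into mitochondria and is best known from developing red cells, where it feeds heme synthesis. Its log2 values were 5.51 and 5.18 on the PPP arrays and 6.35 and 6.33 on the PRP arrays. Both PRP arrays stood above both PPP arrays, and the gap within PPP was the wider one. The PPP mean was 5.35 ± 0.24 and the PRP mean 6.34 ± 0.01 (SD, n = 2 arrays each), a 1.99-fold difference (log2 0.99, SE 0.14, 95% interval 0.64 to 1.34, adjusted p 0.0340 by limma). By p-value the probe set ranked 204 among the 14824. This call did not survive leaving out any single array. The adjusted p became 0.0718 when PPP replicate 1 was dropped, 0.101 for PPP replicate 2, 0.203 for PRP replicate 1 and 0.191 for PRP replicate 2, while the log2 difference stayed between 0.82 and 1.16. With all 36685 probe sets in the fit the adjusted p was 0.227.

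Slc25a28 is mitoferrin 2, the paralogue that serves most other cell types. Its values were 5.24 and 5.05 with PPP and 5.32 and 5.35 with PRP. The PRP arrays were again the higher ones, but the log2 difference was 0.19 (95% interval -0.09 to 0.48, adjusted p 0.484 by limma). The difference of Slc25a37 exceeded that of Slc25a28 by 0.80 on the log2 scale, with the per-array gap between the 2 probe sets at 0.27 and 0.13 with PPP and at 1.02 and 0.98 with PRP. An exact two-sided permutation test of that gap gave p = 0.333, the smallest value that 2 arrays against 2 allow, so the test could not have passed.

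Transcripts that mark red cells, the cell type in which mitoferrin 1 is most used, were also measured. Of 4 measured red cell markers 0 passed by limma. At an unadjusted p below 0.05 there was 1 of the 4, or 25% against 16.3% of all named probe sets. It was Hbb-b1, at a difference of 0.53 (adjusted p 0.114 by limma). The differences of the 4 ran from -0.10 to 0.53, 3 were positive and 1 negative, and their median was 0.29. By level, 1 of the 4 lay above the median of all named probe sets. The log2 of the summed linear values of the red cell markers was 5.43 and 5.51 with PPP and 5.72 and 5.84 with PRP. For 9 leukocyte and macrophage markers, of which 0 passed, the sum was 7.07 and 7.18 with PPP and 7.28 and 7.24 with PRP. The brightest of the 9, Cd14, had a difference of 0.39, whereas 6 of the 9 markers were negative and their median was -0.08. Past an unadjusted p of 0.05 were 2 higher (Cd14 and Ms4a1) and 2 lower with PRP (Tyrobp at -0.87, adjusted p 0.0559 by limma, and Lyz2 at -0.45). Together these made up 44.4% of the leukocyte list, against 16.3% of all named probe sets. The part of either list in the Slc25a37 value was not tested, and in these bulk samples more cells of a type and more RNA per cell cannot be told apart.

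The other members of this group are Slc25a27 and Slc25a14, relatives of the uncoupling proteins. The values of Slc25a27 were 3.94 and 4.01 with PPP and 4.27 and 4.12 with PRP, a log2 difference of 0.22 (SE 0.11, adjusted p 0.418 by limma). The groups did not overlap for Slc25a27, whereas those of Slc25a14 did, at a difference of -0.15.

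**Figure D3:**
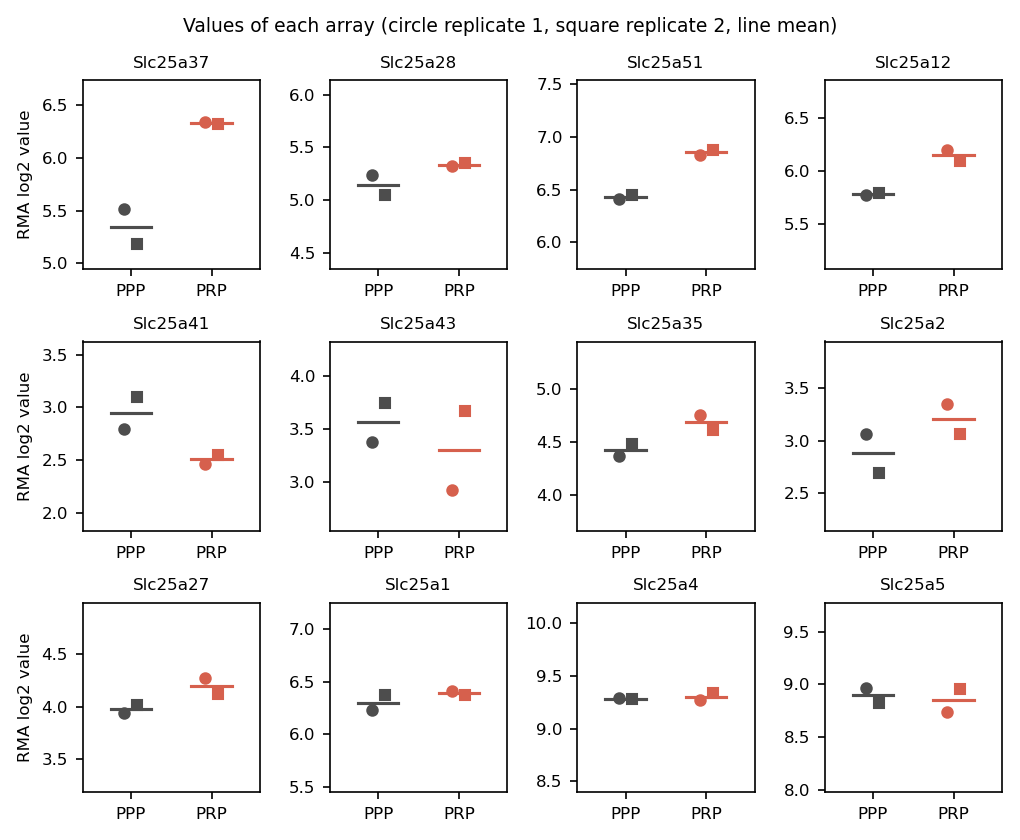
RMA log2 value of each array for 12 carriers, with circles for replicate 1, squares for replicate 2 and a line at the mean of each group (PPP grey, PRP red). Every panel spans the same range of log2 units, and Slc25a37 has the widest separation, with PPP at 5.51 and 5.18 and PRP at 6.35 and 6.33.

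The 12 carriers of nucleotides and cofactors held 0 calls by limma. At an unadjusted p below 0.05 there were 2 of the 12, or 16.7% against 16.3% of all named probe sets. The ADP/ATP carriers Slc25a4 (ANT1) and Slc25a5 (ANT2) exchange mitochondrial ATP for cytosolic ADP. Slc25a4 read 9.29 and 9.28 with PPP and 9.27 and 9.33 with PRP. Slc25a5 read 8.97 and 8.83 with PPP and 8.74 and 8.96 with PRP. Both sets of arrays overlapped, and the log2 differences were 0.02 (95% interval -0.24 to 0.27) and -0.05 (95% interval -0.36 to 0.27), with adjusted p of 0.961 and 0.907 by limma. Slc25a31, the ADP/ATP carrier of germ cells, was at low levels of 2.45 with PPP and 2.50 with PRP.

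The nucleotide and cofactor carriers with the smallest p lay in opposite directions. Slc25a51 is the carrier that brings NAD into mitochondria. Its values were 6.41 and 6.45 with PPP and 6.83 and 6.88 with PRP. The arrays agreed closely within each product and did not overlap between them, with a log2 difference of 0.42 (SE 0.10, 95% interval 0.17 to 0.68), yet its adjusted p was 0.135 by limma. It passed when limma was given an intensity trend (adjusted p 0.0369), a setting under which 5.45% of all named probe sets passed. Slc25a41, a relative of the ATP-Mg/phosphate carriers that lacks their calcium-binding part, read 2.79 and 3.10 with PPP and 2.47 and 2.54 with PRP. This was the lowest difference of the family, -0.44 (SE 0.14, adjusted p 0.216 by limma), at a level close to the lower quartile.

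Slc25a52, an NAD carrier closely related to Slc25a51, read 2.14 and 2.08 with PPP and 1.98 and 1.67 with PRP. Its difference was -0.28 (adjusted p 0.380 by limma) at a low level. Slc25a24, a calcium-regulated ATP-Mg/phosphate carrier, and Slc25a33, which carries pyrimidine nucleotides, had differences of 0.23 and 0.25 with arrays that did not overlap. Slc25a32, which brings folate or FAD into mitochondria, and Slc25a26, the S-adenosylmethionine carrier, were at 0.18 and 0.16. Slc25a42, which carries CoA, and Slc25a17 of peroxisomes were at -0.03 and -0.05.

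The promoters of Slc25a51 and Slc25a12, which had the largest positive differences after Slc25a37, are shown with those of Slc25a4 and Slc25a5, whose differences were near 0. Each is the RefSeq sequence of GRCr8 from 250 bases before to 50 bases after the annotated start, on the gene's strand. They lie at chr5:64458955-64459254 (minus strand) for Slc25a51, chr3:76599487-76599786 (minus strand) for Slc25a12, chr16:52805271-52805570 (plus strand) for Slc25a4 and chrX:120897366-120897665 (plus strand) for Slc25a5. Capitals mark matches to any of the 7 motifs searched on both strands.
Slc25a51: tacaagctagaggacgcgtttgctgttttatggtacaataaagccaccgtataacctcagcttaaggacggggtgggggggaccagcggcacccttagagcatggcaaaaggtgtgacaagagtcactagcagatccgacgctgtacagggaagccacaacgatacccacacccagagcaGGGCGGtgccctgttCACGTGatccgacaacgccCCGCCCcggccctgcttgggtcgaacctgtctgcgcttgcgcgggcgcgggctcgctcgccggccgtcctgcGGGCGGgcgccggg
Slc25a12: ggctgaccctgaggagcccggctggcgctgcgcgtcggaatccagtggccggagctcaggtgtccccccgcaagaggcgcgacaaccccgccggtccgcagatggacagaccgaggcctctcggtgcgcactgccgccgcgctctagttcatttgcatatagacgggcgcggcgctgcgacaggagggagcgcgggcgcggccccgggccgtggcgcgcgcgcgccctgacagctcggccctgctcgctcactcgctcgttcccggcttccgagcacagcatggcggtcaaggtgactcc
Slc25a4: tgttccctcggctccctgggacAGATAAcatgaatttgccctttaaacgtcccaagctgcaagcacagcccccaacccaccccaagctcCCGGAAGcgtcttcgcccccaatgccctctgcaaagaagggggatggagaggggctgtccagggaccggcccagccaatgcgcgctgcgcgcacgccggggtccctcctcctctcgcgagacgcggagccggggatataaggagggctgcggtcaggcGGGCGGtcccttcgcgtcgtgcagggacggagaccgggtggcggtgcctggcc
Slc25a5: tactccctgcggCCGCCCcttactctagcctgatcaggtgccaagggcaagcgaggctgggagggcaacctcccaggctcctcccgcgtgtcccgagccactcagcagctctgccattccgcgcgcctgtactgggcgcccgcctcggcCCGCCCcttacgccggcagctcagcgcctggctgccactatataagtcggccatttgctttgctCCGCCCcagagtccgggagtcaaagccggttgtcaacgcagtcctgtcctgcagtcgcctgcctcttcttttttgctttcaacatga

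A sequence was at hand for 32 of the 40 genes, with 33 promoters, and Slc25a37 is not among the 32. Their median GC content was 58.3% against 51.7% over the 33469 promoters of all genes. The GC box, GGGCGG, was in 21 of the 33, or 63.6%, against 33.1% of all promoters. The core read by ETS factors, CCGGAAG, was in 6 of them (18.2% against 8.75%). The E-box, CACGTG, was found in 4 (12.1% against 6.42%). The motif of the erythroid factor Gata1 and its relatives, AGATAA, also occurred in 4 (12.1% against 11.6%). The AP-1 motif, TGANTCA, was in 2 (6.06% against 7.33%). The promoter element TATAAA was in 1, and the kappaB motif, known by its name, was in 1 (3.03% each, against 14.2% and 7.51%). Among the sequences shown, Slc25a51 held 3 GC boxes and 1 E-box, and Slc25a5 held 3 GC boxes. Slc25a4 held 1 GC box, 1 ETS core and 1 match to the erythroid factor motif, and the Slc25a12 window held no match. These are counts of letters and do not show binding.

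Among the 10 carriers grouped under amino acids and glutathione 0 passed by limma. The group includes Slc25a47, to which no substrate is assigned here. At an unadjusted p below 0.05 there was 1 of the 10, or 10% against 16.3% of all named probe sets. That one was Slc25a12 (aralar), which exchanges aspartate for glutamate and is a step of the malate-aspartate shuttle. It read 5.77 and 5.79 with PPP and 6.20 and 6.10 with PRP, with no overlap. The log2 difference was 0.37 (SE 0.11, 95% interval 0.10 to 0.63, adjusted p 0.190 by limma). Slc25a2, an ornithine carrier, read 3.06 and 2.69 with PPP and 3.34 and 3.06 with PRP. Its difference of 0.32 (SE 0.17, adjusted p 0.418) went with arrays that overlapped narrowly. The other ornithine carrier, Slc25a15, had a difference of the opposite sign, -0.22, and its arrays did not overlap.

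Slc25a39, which supplies mitochondria with glutathione, was at 0.20, and Slc25a45, a less studied member, at 0.21. Slc25a44, the carrier of branched-chain amino acids, was at -0.20. Slc25a38 delivers glycine for the first step of heme synthesis. Its values were 4.70 and 4.56 on the PPP arrays and 4.54 and 4.39 on the PRP arrays, so its difference was opposite in sign to that of Slc25a37, at -0.16 (adjusted p 0.567 by limma). Slc25a18, a glutamate carrier, was at -0.18, Slc25a47 of liver at -0.12 and Slc25a29, which carries basic amino acids, at -0.06, all with overlapping arrays.

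The 5 carboxylate and acylcarnitine carriers showed the narrowest range, from -0.08 to 0.09, with 0 calls by limma and 0 past an unadjusted p of 0.05. Slc25a1 exports citrate to the cytosol, where it feeds fatty acid and sterol synthesis. It read 6.23 and 6.37 with PPP and 6.42 and 6.37 with PRP, a log2 difference of 0.09 (95% interval -0.18 to 0.37). Slc25a10, the dicarboxylate carrier, read 5.67 and 5.49 with PPP and 5.61 and 5.67 with PRP, a difference of 0.06 (95% interval -0.23 to 0.34). The adjusted p of these genes was 0.745 and 0.869 by limma. Slc25a11, which exchanges oxoglutarate for malate as the partner of aralar in the shuttle, was at 0.01. Slc25a20, which brings acylcarnitines in for fat oxidation, was at -0.02, and Slc25a21 was at -0.08. The intervals of all 5 lay within a 1.5-fold change.

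Of 4 members without a settled substrate 0 passed by limma, also at an unadjusted p of 0.05. Slc25a35 read 4.36 and 4.49 with PPP and 4.76 and 4.61 with PRP, a difference of 0.26 (adjusted p 0.348). Slc25a43 had the widest interval of the family, -0.92 to 0.39. Its values were 3.38 and 3.75 on the PPP arrays and 2.93 and 3.67 on the PRP arrays, so the PRP arrays lay further apart than the groups. On the GRCr8 assembly Slc25a43 is the neighbour of Slc25a5. Slc25a34 and Slc25a46, an outer membrane member that acts in mitochondrial dynamics, were at 0.13 and 0.06.

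The last 5 probe sets are named as copies, relatives or pseudogenes of other members, and 0 passed by limma, also at an unadjusted p of 0.05. Slc25a19l1 had the largest size of difference among them, -0.29, from 1.97 and 2.13 with PPP to 1.88 and 1.64 with PRP (adjusted p 0.355). Slc25a54 and Slc25a51l1 were at -0.09 and -0.08. The pseudogenes Slc25a5-ps7 and Slc25a39-ps5 were at -0.04 and 0.01. Near-identical copies can share probes with their parent genes, so the values of Slc25a5 and Slc25a5-ps7, of Slc25a39 and Slc25a39-ps5, and of Slc25a51, Slc25a51l1 and Slc25a52 are uncertain to that extent. Carriers such as Slc25a3, Slc25a13, Slc25a22, Slc25a23, Slc25a25, Slc25a36 and Slc25a40 were not analysed here.

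The genes that work with the carriers were counted in 8 lists. Of the 4 measured carrier relatives under other symbols, the uncoupling proteins Ucp1, Ucp2 and Ucp3 and the outer membrane protein Mtch1, 0 passed and the differences ran from -0.01 to 0.07, with Ucp1 at 0.07 (adjusted p 0.823 by limma). Of 14 measured genes of the import machinery that places carriers in the membrane, 0 passed by limma. Past an unadjusted p of 0.05 were 4 of the 14, or 28.6% against 16.3% of all named probe sets. In this list 12 were positive and the median difference was 0.17. The nearest was Timm8a1, a small chaperone of the intermembrane space, which read 6.37 and 6.73 with PPP and 7.00 and 7.06 with PRP (difference 0.48, adjusted p 0.209). Of 17 other mitochondrial membrane transporters 0 passed, 1 was past an unadjusted p of 0.05 (5.88%) and the median was -0.01. Sfxn1, the mitochondrial serine transporter, came nearest at 0.35 (adjusted p 0.222).

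Regulators of mitochondrial biogenesis likewise gave 0 calls of 11 by limma, at a median of 0.11. Past an unadjusted p of 0.05 were 3 of the 11, or 27.3% against 16.3% of all named probe sets. Tfam, which packages and transcribes mitochondrial DNA, read 6.30 and 6.58 with PPP and 7.00 and 6.96 with PRP (difference 0.54, adjusted p 0.132). In the list of the malate-aspartate shuttle and glutamate enzymes 0 of 11 passed by limma and the median was -0.03. At an unadjusted p below 0.05 there were 4 of the 11, or 36.4% against 16.3% of all named probe sets. Of these, 1 (Got1) was higher and 3 (Aldh18a1, Odc1 and Gpt2) were lower with PRP. Got1, the cytosolic aspartate aminotransferase of the shuttle, had a difference of 0.42 (adjusted p 0.137). Of 9 genes of the carnitine shuttle and citrate use 0 passed and the median was 0.04. Past an unadjusted p of 0.05 were 2 of the 9, or 22.2% against 16.3% of all named probe sets, in opposite directions. Acly, which splits the citrate that Slc25a1 exports, was at 0.32 (adjusted p 0.229 by limma) and Idh1 at -0.31 (adjusted p 0.236 by limma).

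Folate one-carbon enzymes held the only call of the partner lists: of 9 measured, 1 fell, 0 rose and 8 did not pass, a share of 11.1% against 1.85% of all named probe sets, at a median of 0.15. Past an unadjusted p of 0.05 were 5 of the 9, or 55.6% against 16.3%, with Mthfd1, Shmt1 and Tyms higher and Aldh1l2 and Mthfd2 lower with PRP. The list was chosen with earlier results of these data known, so these shares are a description only. Aldh1l2, the mitochondrial enzyme that oxidises formyl tetrahydrofolate, read 6.97 and 7.04 with PPP and 6.23 and 6.22 with PRP. It fell by 0.78 on the log2 scale (SE 0.10, adjusted p 0.0272 by limma), and dropping any single array ended the call (adjusted p 0.112 to 0.198) at a difference of -0.81 to -0.75. Mitochondrial folate reaches this enzyme through the carrier Slc25a32, whose difference was 0.18. Of 11 partners in iron, heme and CoA synthesis 0 passed by limma, also at an unadjusted p of 0.05, 9 were positive and the median was 0.19. Ppox, an enzyme of heme synthesis, was at 0.46 (adjusted p 0.327), and Tfrc, the transferrin receptor that brings iron into the cell, was at 0.22 (adjusted p 0.370).

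**Figure D4:**
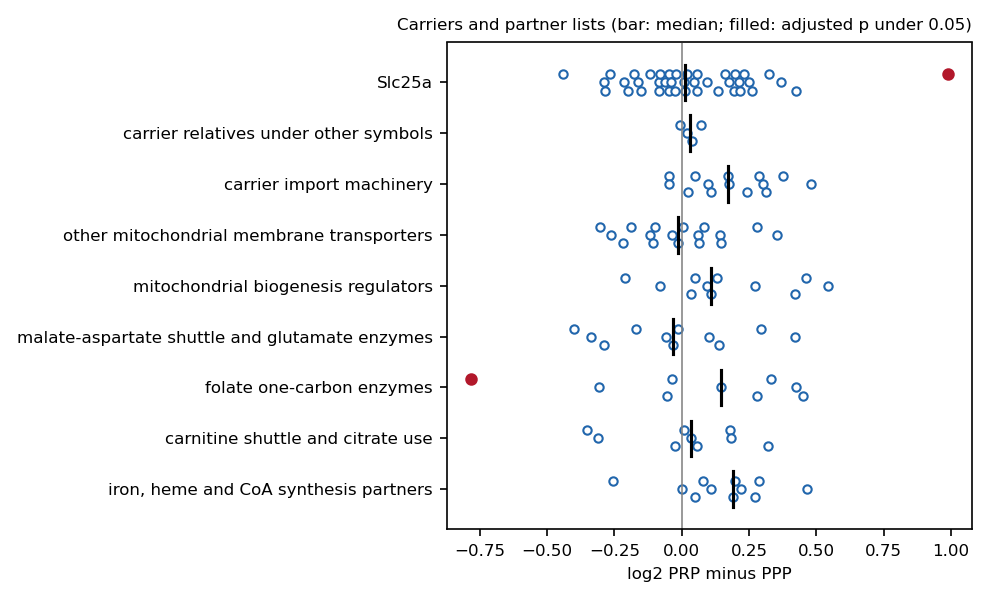
Log2 PRP minus PPP (horizontal) of the Slc25a probe sets and of each measured gene of 8 partner lists, with open points for genes that did not pass and filled points for an adjusted p below 0.05. Black bars mark medians, and the filled points are Slc25a37 at 0.99 and Aldh1l2 at -0.78.

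Other transporters and another group of mitochondrial genes were counted the same way. Of 235 probe sets with other Slc symbols 0 rose, 4 fell and 231 did not pass, a share of 1.70%, and the 4, named after their values were seen, were Slc38a4, Slc44a2, Slc7a11 and Slc7a2. The 235 probe sets had a median difference of -0.06 against 0.01 for the Slc25a probe sets. Of 64 probe sets of mitochondrial ribosomal proteins, 0 passed by limma and the median was 0.11, with 51 positive and 13 negative. Past an unadjusted p of 0.05 were 7 of the 64, or 10.9% against 16.3% of all named probe sets. No test of these lists against each other was made. The cultures expressed tendon fibroblast genes, with 9 of 10 measured markers above the median level of all named probe sets. By limma at an adjusted p of 0.05, 2 of the 10, Fmod and Tnmd, were lower with PRP. That is 20% against 1.85% of all named probe sets. Past an unadjusted p of 0.05 were 9 of the 10 (7 lower and 2 higher with PRP), or 90% against 16.3%. The median difference of the 10 was -0.54, with 3 positive and 7 negative. Above the median level were 2 of 6 skeletal muscle, 2 of 8 adipocyte, 1 of 9 leukocyte, 1 of 5 endothelial and 3 of 6 platelet markers. Levels of different probe sets are not strictly comparable, so this is a rough guide. Muscle and brown fat are rich in mitochondria. Of the 6 muscle markers 1 (Acta1) fell, or 16.7% against 1.85% of all named probe sets. The log2 of the summed muscle markers was 7.67 and 7.49 with PPP and 7.00 and 6.97 with PRP. The other 5 muscle markers did not pass and were all positive, from 0.01 to 0.22, and the median of the list was 0.05. Of the 8 adipocyte markers 1 (Fabp4) rose, or 12.5% against 1.85%. The log2 of the summed adipocyte markers was 6.59 and 6.64 with PPP and 7.22 and 7.49 with PRP. The other 7 adipocyte markers did not pass, 5 of them were negative, they ran from -0.28 to 0.07 and the median of the list was -0.05. Of the 6 platelet markers 1 rose, or 16.7% against 1.85% of all named probe sets. It was Pf4, a chemokine stored in platelets, with a 3.61-fold difference (log2 1.85, SE 0.13, adjusted p 0.00398 by limma). The other 5 ran from -0.16 to 0.24. Of the 5 endothelial markers 0 passed by limma, 4 were positive and 1 negative, and their median was 0.04. Past an unadjusted p of 0.05 was 1 of them, or 20% against 16.3%, namely Tek at 0.68 (adjusted p 0.122 by limma). The log2 of the summed endothelial markers was 5.30 and 5.32 with PPP and 5.55 and 5.72 with PRP. The called markers were named after their values were seen. Their part in the carrier values was not tested.

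**Figure D5:**
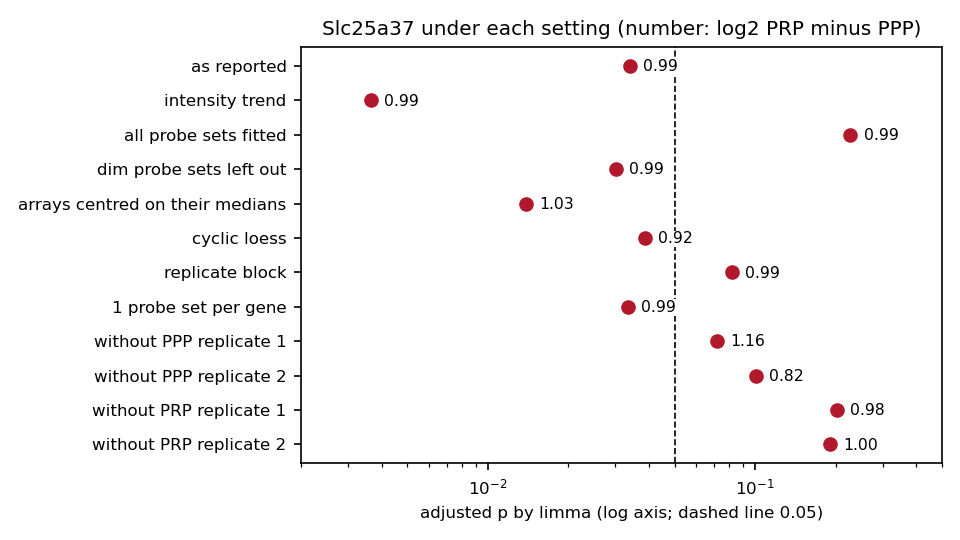
Adjusted p of Slc25a37 by limma (log axis) as reported and under 11 other settings, with the log2 difference printed beside each point and a dashed line at 0.05. The difference lies between 0.82 and 1.16 in all of them, while the adjusted p runs from 0.00364 to 0.227.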

How the data were processed

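Per the labels, biotin-labelled cDNA amplified from 15 ng of total RNA was hybridised to 4 Affymetrix arrays. The deposited table holds log2 values. Per the submitters' processing notes the authors used oligo, RMA and limma, with no version or order given; the genome build is not given in the sources used here. No detection call was at hand, arrays have no read depth, and 4 arrays limit the precision.

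Gene names came from the platform table, and all 40 carrier identifiers were matched to RefSeq's GRCr8 gene table with 0 symbols changed. Differences between PRP and PPP were fitted with limma 3.58.1 (R 4.3.3; lmFit and eBayes without an intensity trend, two-sided tests) on the 14824 probe sets of 1 symbol, unfiltered, with Benjamini-Hochberg adjustment and a threshold of 0.05. The fit had 2 residual and 3.87 prior degrees of freedom. Intervals use the moderated standard error. In list counts a gene with several probe sets was represented by the brightest. The fitting code was tested on simulated data, in which 55 of 100 changes of 2-fold and 89 of 100 changes of 4-fold passed the threshold. Among the unchanged probe sets 2 passed. The simulated noise was normal, with the spreads of the data shuffled over probe sets. These rates therefore check the code and do not measure the power of this experiment.

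The members and lists were chosen with earlier results of these data known. Genes given with every array's value are the called ones, those with the smallest p in each group or list and the highest and lowest differences. The planned choice of a paralogue by protein identity could not be made; Slc25a28 was taken as the paralogue of Slc25a37 by name, and the ADP/ATP carriers, Slc25a38 and the other genes given with values outside this rule were chosen after their values were seen.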

Additional observations from a re-analysis of the deposited data

How the results depend on the processing

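The call of Slc25a37 was kept with an intensity trend, with dim probe sets left out, after median centring or cyclic loess, and with 1 probe set per gene. It was lost when all 36685 probe sets were fitted (adjusted p 0.227), with a replicate block (adjusted p 0.0821) and with any array left out (0.0718 to 0.203). The count of carriers past the threshold was 2 with the trend (Slc25a37 and Slc25a51) and 0 when all probe sets were fitted, with a replicate block and with any array left out (0 in each of the 4). Deviations of same-numbered arrays from their group means correlated at r = 0.0056, so the replicate numbers were not taken to pair the arrays. Over all named probe sets the count went from 274 to 808 with the trend, 123 with the replicate block, 2 with all probe sets fitted and 56 to 81 with 1 array left out. Fits with an array left out have 1 group of a single array, assumed to vary like the other. The median carrier difference went from 0.010 to 0.037 without dim probe sets, 0.047 after median centring and -0.0046 after cyclic loess. It lay between -0.0063 and 0.067 with 1 array left out. Of the 40 carriers, 21 were positive, against 23 after median centring and 17 after cyclic loess. Across 152 recomputed values of the other 14 carriers tracked, 144 kept direction and call. Slc25a51 passed with the trend, and 7 uncalled values changed sign: with cyclic loess Slc25a10 went to -0.00032 and Slc25a4 to -0.0045, and with 1 array left out Slc25a10 lay between -0.031 and 0.15, Slc25a4 between -0.014 and 0.050, Slc25a5 between -0.15 and 0.062 and Slc25a43 between -0.64 and 0.11. The values of Slc25a5 were 0.026 without PPP replicate 1 and 0.062 without PRP replicate 1, and that of Slc25a43 was 0.11 without PRP replicate 1. The causes were not tested. Aldh1l2, added to these settings after the data were seen, lost its call with all probe sets fitted (adjusted p 0.195), a replicate block (0.0890) and any array left out.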
